A study of Mus musculus with 12 samples.

Results

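Brains of untrained male Stau2GT mice were compared with brains of untrained male WT mice. The arrays were chosen by their labels alone, which call 6 of the 12 arrays of the series naive, 3 of Stau2GT and 3 of WT. Stau2GT mice (B6.129P2-Stau2Gt(RRG396)Byg) carry a gene trap within *Stau2* in the germ line, which lowers the protein without removing it and places β-galactosidase under control of the gene. WT mice were C57Bl/6J, and the labels give C57Bl/6J as the strain background of both genotypes and an age of 16 to 20 weeks. Naive mice had not gone through the behavioral tests, whereas the trained mice had spent 4 weeks in them. Trained arrays are given for comparison, and they also entered the filter and the estimate of spread behind the limma p-values. The labels do not say whether the 2 genotypes were littermates, nor whether an array holds RNA of 1 mouse or of several. Each array is called a mouse here, and p-values measure the spread between these samples.

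Staufen2 is a double-stranded RNA-binding protein of neurons. It is a component of RNA granules that carry mRNAs into dendrites, and it takes part in the control of their stability and local translation. *Stau1* codes for its close relative. Dendritic spine formation, synaptic plasticity and learning are the processes for which Staufen2 is best known in the brain.

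Each value is a log2 RMA value of a transcript cluster, that is of the probes that lie along 1 transcript unit. A difference is Stau2GT minus WT in log2 units, so that 1 stands for a 2-fold change. A cluster passed where the Benjamini-Hochberg adjusted p from limma over all clusters was under 0.05. *Snap25*, a presynaptic gene of neurons, lay between 12.68 and 12.78 in the 6 naive mice, whereas the blood genes *Hba-a1* and *Alas2* had no kept cluster of their own. Naive arrays of the same genotype correlated at 0.987 to 0.988 and naive arrays of different genotype at 0.986 to 0.987.

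Untrained Stau2GT and WT brains differed in few clusters and by little elsewhere. Of 27966 clusters, 21 were higher (0.0751%) and 3 lower (0.0107%) in naive Stau2GT mice. The median absolute difference was 0.07, 90% of the clusters differed by less than 0.23, and 99% by less than 0.54. Differences above 1 were measured in 31 clusters that were higher and 9 that were lower. Among the 16425 genes with a symbol of their own, 8521 were higher than 0 and 7661 lower, and the median was 0.01. At an unadjusted p under 0.05 there were 383 higher genes (2.33%) and 360 lower genes (2.19%), and 1 gene passed. In 1212 genes (7.38%) all 3 Stau2GT mice lay above all 3 WT mice, and in 851 genes (5.18%) all 3 lay below. The shares of genes called or not overlapping in the lists below are to be read against these.

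The 24 passing clusters fell into 16 distinct profiles, since 9 clusters held the same values. Of these, 7 profiles (6 higher and 1 lower, 15 clusters) passed in trained mice too, with sizes from 1.26 to 2.31 in naive mice, and none of the 7 passed a test of the difference between training states (limma, adjusted p from 0.649 to 0.981). The other 9 profiles (7 higher and 2 lower) did not pass in trained mice. In all 9 of them, and in 2 of the first 7, the 3 naive WT mice stood on 1 side of the remaining 9 arrays. In those 2, clusters 17549054 and 17549080, naive WT reached 4.38 and 4.3, just under the lowest trained WT values of 4.39 and 4.32. Of 27966 kept clusters, naive WT lay above the other 9 arrays in 210 and below in 256. Naive Stau2GT lay above in 458 and below in 381. With a gap over 0.3 there were 26 such clusters for naive WT and 4 for naive Stau2GT.

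The 7 profiles shared with trained mice belong to clusters that have no gene name here or have several. The profile held by 9 clusters was 4.70, 4.55 and 4.38 in naive WT and 6.93, 6.70 and 6.92 in naive Stau2GT mice, a difference of 2.31 (standard error 0.19, limma adjusted p = 0.000205). WT values of this profile lay below the log2 minimum of 5 and Stau2GT values above it. The unnamed clusters 17549054, 17549080, 17549096, 17549062 and 17549150 were higher by 1.31 to 1.79. The first 3 of them, like the profile of 9 clusters, lay under the log2 minimum in all WT arrays and were kept through the Stau2GT arrays alone, so that a difference had to appear and its size rests on values under the minimum. In the other direction, cluster 17225329 with several symbols was 7.89, 8.06 and 8.21 in WT and 6.87, 6.86 and 6.66 in Stau2GT mice, a difference of -1.26 (standard error 0.09, limma adjusted p = 0.000176), and -1.16 in trained mice. All 7 profiles separated the 6 Stau2GT from the 6 WT arrays.

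The profiles that passed in naive and not in trained mice were led by unnamed cluster 17467250. It was 6.72, 7.09 and 6.93 in naive WT and 8.99, 9.0 and 8.97 in naive Stau2GT mice, a difference of 2.07 (standard error 0.09, limma adjusted p = 2.63e-06). All 6 trained arrays lay between 8.81 and 8.96, next to naive Stau2GT and apart from naive WT. Clusters 17304193, 17304162 and 17304177, which share their several symbols, were higher by 1.38, 1.48 and 1.43 in naive Stau2GT mice, and were -0.20, -0.42 and -0.38 in trained mice. Cluster 17340548 was 9.71, 9.68 and 9.69 in naive WT and 8.87, 8.77 and 8.90 in naive Stau2GT mice (limma, adjusted p = 0.0011). The trained arrays lay between 8.55 and 8.80, so that here too naive WT mice were the group set apart. The test of a difference between the training states was passed by 6 clusters (0.0215%). The sample descriptions carry 1 run name for all naive and another for all trained arrays, so that a level that differs between naive and trained mice cannot be told apart from a difference between these runs, whereas each genotype comparison lies within 1 run.

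**Figure D1:**
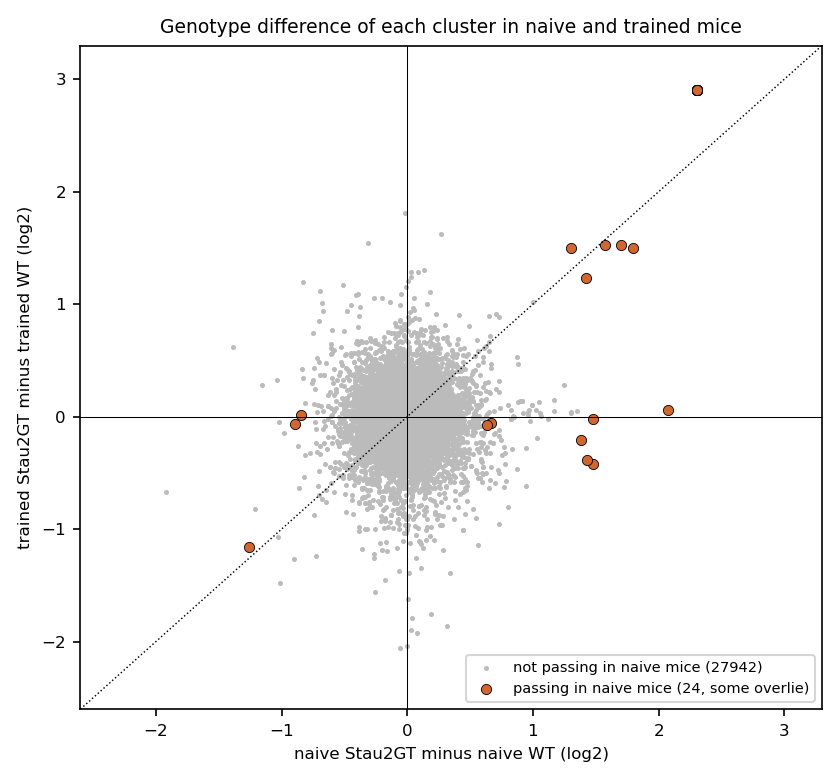
Each point is 1 of 27966 clusters, with the log2 difference between naive Stau2GT and naive WT mice on the x axis and that between the trained groups on the y axis; the dotted line marks equal differences. Of the 24 clusters that passed in naive mice (orange, 9 of them on 1 point at 2.31), 15 lie near the dotted line and 9 lie between -0.42 and 0.06 on the y axis.

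Over all clusters, the differences in naive and in trained mice were nearly unrelated (Pearson r = 0.05 and Spearman rho = -0.06 over 27966 clusters, which are not independent and share 1 array run within each state). Genes whose 3 Stau2GT mice lay above all 3 WT mice in both states numbered 46 (0.28%), and genes below in both states 47 (0.286%).

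*Gabra2*, which codes for the alpha2 subunit of the GABA-A receptor, the chloride channel of fast inhibition, was the 1 named gene that passed. Its values were 10.44, 10.45 and 10.37 in naive WT and 9.62, 9.41 and 9.54 in naive Stau2GT mice. The groups did not overlap (difference -0.90, standard error 0.09, limma adjusted p = 0.00112). A two-sided exact permutation test gave p = 0.1, and 3 mice against 3 allow no smaller value. By the methods' t-test the adjusted p of Gabra2 in naive mice was 0.185 after Benjamini-Hochberg adjustment. In trained mice it was 9.16, 9.30 and 9.23 in WT and 9.29, 8.98 and 9.22 in Stau2GT. Naive WT mice thus lay at least 0.75 above the other 9 arrays, and the test of the difference between the training states gave an adjusted p of 0.132 (limma).

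The other 12 measured subunits of this receptor ranged from -0.10 for *Gabre* to 0.15 for *Gabra6*, the granule cell subunit, and none had an unadjusted p under 0.05. The genes that flank *Gabra2* on chromosome 5 code for subunits of the same receptor, and they did not share the difference. *Gabrg1* was at 0.06, *Gabra4* at 0.00 and *Gabrb1* at 0.00 (standard errors 0.11, 0.06 and 0.07), while *Gnpda2*, on the far side of *Gabrg1*, was at 0.21 with an adjusted p of 0.954 (limma). Among 20 other genes of GABA synapses, which include transporters, synthetic enzymes and scaffold proteins, the median was -0.01. *Dbi*, which codes for a peptide that binds the benzodiazepine site of GABA-A receptors, was 6.99, 7.12 and 7.12 in WT and 6.64, 6.90 and 6.22 in Stau2GT mice (-0.49, limma adjusted p = 0.844). All 3 Stau2GT mice lay below the WT mice, mouse 3 farthest.

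*Gabra2* and *Nnt* are both known to differ between substrains of C57BL/6 mice, with an intronic deletion in *Gabra2* and missing exons in *Nnt* in C57BL/6J. *Nnt* codes for the nicotinamide nucleotide transhydrogenase of the inner mitochondrial membrane. It was 7.91, 7.72 and 7.98 in naive WT and 7.49, 7.44 and 7.36 in naive Stau2GT mice (-0.44, standard error 0.10, limma adjusted p = 0.47). The trained arrays lay between 7.2 and 7.55, so that naive WT mice were above all others for *Nnt* as for *Gabra2*. Of the other 6 measured genes listed as different between substrains, none had an unadjusted p under 0.05, with *Wdfy1* at -0.11, *Cyfip2* at -0.04, *Ide* at 0.04 and *Crb1* at 0.20. The substrain of the mice was not tested.

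*Nnt* lies at 1 end of a run of 7 neighbouring measured genes on chromosome 13 that was picked out after its values were seen. In their order these are *Nnt*, *Paip1*, *4833420G17Rik*, *Ccl28*, *Hmgcs1*, *Nim1k* and *Zfp131*. Of the 7, 5 had an unadjusted p under 0.05, 4 of them lower in Stau2GT mice. Among all genes 2.33% were higher and 2.19% lower at this p. The choice of the run partly fixed its count, so the count cannot be tested against these shares. The uncharacterized *4833420G17Rik* was 8.12, 7.94 and 8.05 in WT and 7.65, 6.90 and 6.86 in Stau2GT mice (-0.90, limma adjusted p = 0.188). It stood at -1.27 in trained mice, and without naive Stau2GT mouse 1 it was -1.157 and passed (limma, adjusted p = 0.000202). *Zfp131*, a zinc finger transcription factor gene, was 8.32, 8.35 and 8.20 in WT and 8.08, 8.0 and 7.97 in Stau2GT mice (-0.27, limma adjusted p = 0.762). The chemokine gene *Ccl28* stood at -0.45 and *Hmgcs1*, which codes for an enzyme of cholesterol synthesis, at 0.25. *Paip1*, between *Nnt* and *4833420G17Rik*, stood at 0.02, and the 9 genes before *Nnt* ranged from -0.17 to 0.16. In trained mice *Ccl28* stood at -0.29, *Hmgcs1* at 0.13 and *Paip1* at -0.18, and 2 of the 7 genes separated the genotypes the same way in both states.

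**Figure D2:**
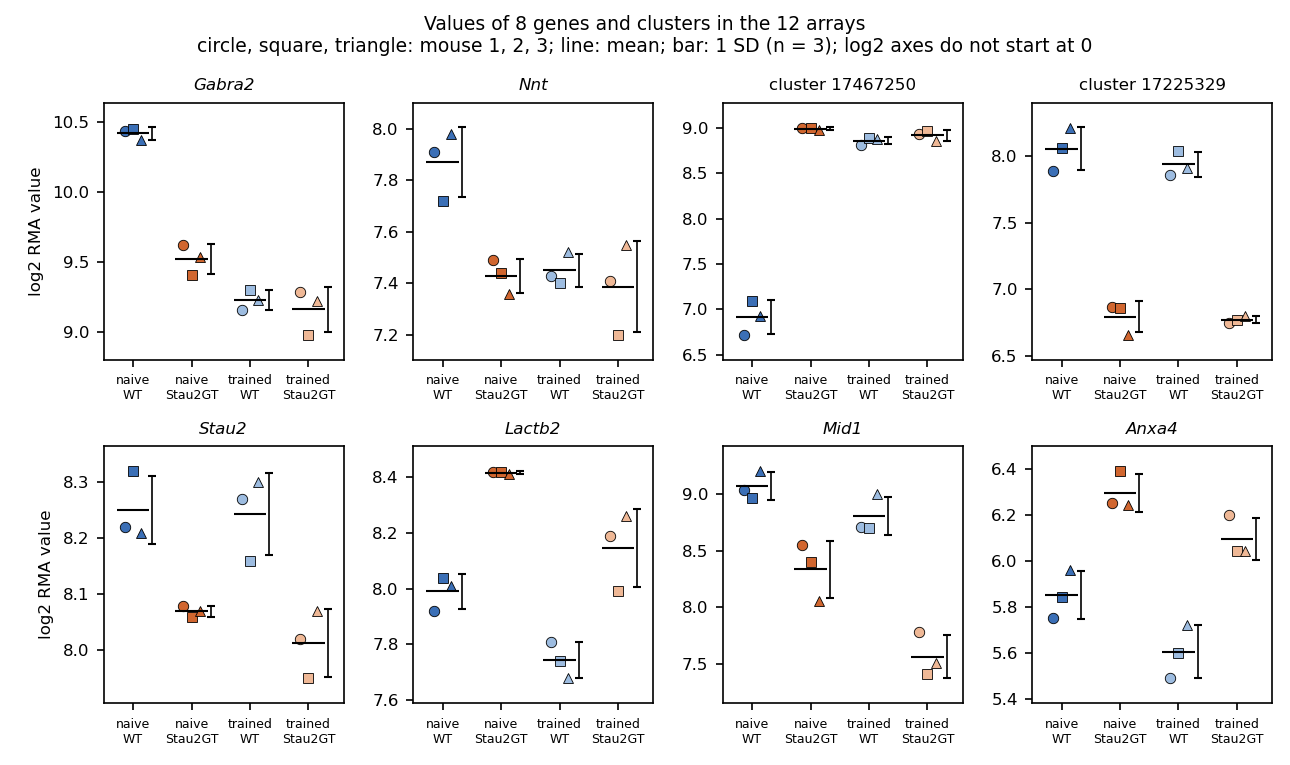
Log2 RMA values (y axis) of 6 genes and 2 clusters in the 12 arrays by group (x axis), with symbols for mice 1, 2 and 3, the group mean (line) and 1 SD (bar, n = 3). Naive WT mice stand apart from the other 3 groups for *Gabra2*, *Nnt* and cluster 17467250, whereas in each training state the Stau2GT mice lie on the same side of their WT mice for cluster 17225329, *Stau2*, *Lactb2*, *Mid1* and *Anxa4*.

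*Stau2* itself was 8.22, 8.32 and 8.21 in naive WT and 8.08, 8.06 and 8.07 in naive Stau2GT mice, a value 11.7% lower on the linear scale, with no overlap of the mice (-0.18, limma adjusted p = 0.954). The decrease was smallest, at 0.145 on the log2 scale, without WT mouse 2. The position of the probes along *Stau2* was not analysed here, so the value does not tell trapped from intact transcripts. *Stau1* was 8.48, 8.49 and 8.49 in WT and 8.52, 8.50 and 8.54 in Stau2GT mice (0.03, standard error 0.06).

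Genes of neuronal RNA granule proteins, *Stau1* and *Stau2* included, differed little. Of 38 listed, 29 were measured, of which 16 were above 0 and 12 were below (median 0.03, and 0.00667 without WT mouse 2). In 7 of the 29 all Stau2GT mice lay above all WT mice, beside 7.38% of all genes. The per-mouse medians of the list were 0.007, -0.003 and 0 in WT and 0.033, 0.013 and 0.033 in Stau2GT mice. They did not overlap, but 0.007 and 0.013 lie closer than the last of the 2 decimals of the deposited values. *Ilf2*, which codes for a partner of double-stranded RNA-binding proteins, was 8.83, 8.86 and 8.80 in WT and 9.12, 9.04 and 9.05 in Stau2GT mice (0.24, limma adjusted p = 0.941). *Caprin1*, a gene of a core protein of neuronal RNA granules, stood at 0.19 (limma adjusted p = 0.954). *Ilf2* and *Caprin1* were the 2 higher members of the 29 at an unadjusted p under 0.05, beside 2.33% of all genes. *Fmr1*, the gene of the fragile X protein, stood at 0.13, *Pum2* at -0.12 and *Ago2* at -0.10.

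Messages known to lie in dendrites or to be bound by Stau2 had a median of -0.01 over 24 measured genes, with 10 above 0 and 13 below. *Rgs4*, a regulator of G protein signaling and a Stau2 target known from rat neurons, was 10.12, 10.17 and 10.02 in WT and 10.27, 10.29 and 10.34 in Stau2GT mice (0.20, limma adjusted p = 0.954). In trained mice *Rgs4* stood at -0.11. *Camk2a*, the kinase gene of the postsynaptic density, was at -0.05, *Map2*, the gene of the dendritic microtubule protein, at -0.06, *Shank1* at -0.15 and *Arc* at 0.10. These values come from whole brain RNA and do not show where in the cell a message lies.

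Genes of glutamate receptors and of the release machinery lay near WT values. The 22 measured AMPA, NMDA and kainate receptor subunits ranged from -0.18 for *Grik3* to 0.10, and none had an unadjusted p under 0.05 or separated the groups. Their median, and those of synaptic vesicle genes (29 measured), of cerebellins and synaptic adhesion genes (23 measured) and of voltage-gated sodium and calcium channel genes (27 measured), lay within 0.01 of 0. *Cplx3*, a complexin gene of a subset of neurons, was 6.31, 6.39 and 6.36 in WT and 5.97, 6.14 and 5.98 in Stau2GT mice (-0.32, limma adjusted p = 0.954), and *Cacna1c*, the gene of a neuronal L-type calcium channel, stood at -0.17 with the same adjusted p.

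The genes that separated the genotypes in both training states did not pass in naive mice, and those with the smallest p are given here. *Lactb2*, which codes for a mitochondrial ribonuclease, was 7.92, 8.04 and 8.01 in naive WT and 8.42, 8.42 and 8.41 in naive Stau2GT mice (0.43, standard error 0.08, limma adjusted p = 0.155), and stood at 0.40 in trained mice. *Anxa4*, an annexin gene, was 5.75, 5.84 and 5.96 against 6.25, 6.39 and 6.24 (0.44, limma adjusted p = 0.247; trained 0.49). *Samd11* was 6.15, 5.89 and 6.02 against 6.70, 6.38 and 6.64 (0.55, limma adjusted p = 0.258; trained 0.68). In each of the 3 genes the groups did not overlap. *Opalin*, *Clec14a* and *Tmem86a* were the next of this kind, at 0.42, 0.27 and 0.22.

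Among the genes that were lower in both states, *Mid1*, which codes for a microtubule-bound ubiquitin ligase and spans the pseudoautosomal boundary of the mouse X chromosome, was 9.03, 8.96 and 9.20 in naive WT and 8.55, 8.40 and 8.06 in naive Stau2GT mice. The difference of -0.73 (standard error 0.14, limma adjusted p = 0.258) compares with -1.24 in trained mice. The predicted gene *Gm20172* was 7.67, 7.75 and 7.72 against 7.19, 7.19 and 7.21 (-0.52, limma adjusted p = 0.0696; trained -0.53). Without trained Stau2GT mouse 3 *Gm20172* passed in naive mice (limma, adjusted p = 0.00556). *Zfp131*, *Olfr287*, *Scarna6* and *4833420G17Rik* were the others of the 6 lowest by p, at -0.27, -0.49, -0.26 and -0.90.

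*Stau2* lies on chromosome 1, and several genes that separated the genotypes in both states lie near it. Of the 50 measured genes within 25 places of *Stau2* in gene order, 2 (4%) separated the genotypes the same way in both states, and of the 98 genes 26 to 100 places away 4 did (4.08%), against 0.373% of the 804 genes farther away on the chromosome and 0.536% of the genes on other chromosomes. They were *Ncoa2* (12 places before *Stau2*, -0.12), *Lactb2* (10 before), *Adhfe1* (29 before, -0.22), *Gm20172* (31 after), *Mir5103* (46 after, 0.12) and *Snord89* (93 after, -0.16). *Mcmdc2*, 24 places before, was 5.06, 5.08 and 5.13 in WT and 4.51, 4.54 and 4.43 in Stau2GT mice (-0.60, limma adjusted p = 0.129), values around the log2 minimum that all 6 Stau2GT arrays fell under, so that the gene was kept through WT arrays alone. In naive mice alone the share of non-overlapping genes was 18% within 25 places, 11.2% at 26 to 100 places and 13.9% farther away. The line name also gives the strain in which the gene trap was made, and whether a chromosome segment of that strain remained around the gene was not tested.

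**Figure D3:**
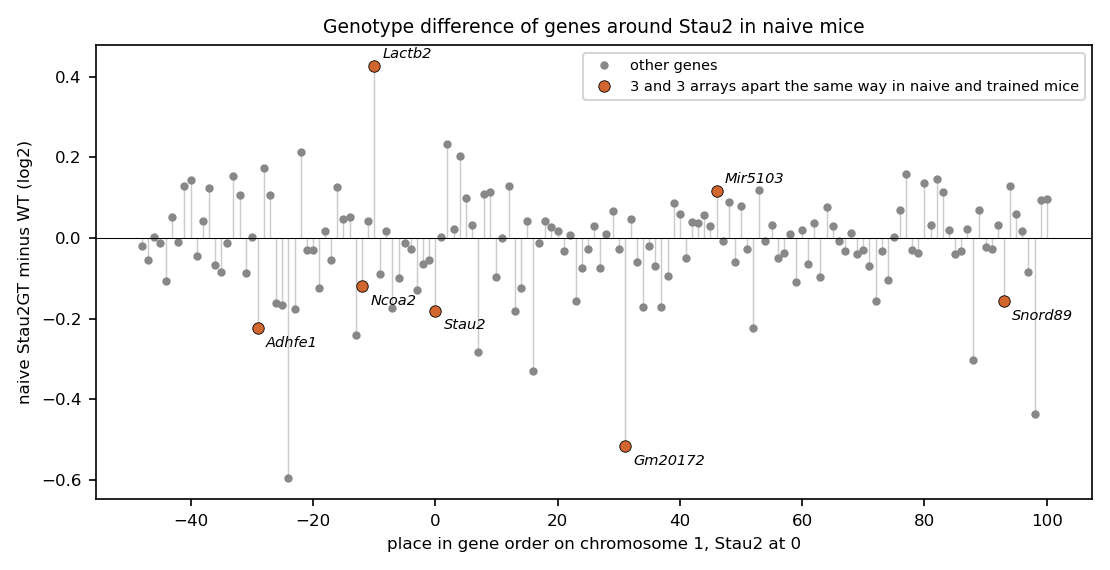
Log2 difference between naive Stau2GT and naive WT mice (y axis) of measured genes by their place in gene order on chromosome 1 (x axis, *Stau2* at 0). Orange points are genes whose 3 Stau2GT mice lay on the same side of the 3 WT mice in naive and in trained mice, and 6 of them besides *Stau2* lie within 100 places.

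Of the other named genes none passed, and they are given in the order of their unadjusted p. Among higher genes, *Trim59*, which codes for a ubiquitin ligase, was 7.54, 7.77 and 7.48 in WT and 8.04, 7.97 and 8.03 in Stau2GT mice (0.42, limma adjusted p = 0.188). Without WT mouse 2 *Trim59* passed (limma, adjusted p = 0.0268). *Bex1* (0.44), a brain-expressed X-linked gene, *Mmd* (0.29), *Cyp2r1* (0.39), the gene of a vitamin D 25-hydroxylase, *Kdr* (0.54), *Plac9a* (0.44), *Ufsp2* (0.27), *Morf4l2* (0.27) and *Psmd13* (0.24), the gene of a proteasome subunit, followed. *Bex1* was 8.35, 8.39 and 8.67 in WT and 8.99, 8.92 and 8.83 in Stau2GT mice. All of these separated the 6 naive mice without overlap. For *Trim59*, *Mmd*, *Plac9a*, *Morf4l2* and *Psmd13* the naive WT mice also lay below the other 9 arrays, by 0.01 to 0.15. *Plac9a* has 3 clusters, of which the 1 with the highest mean is given.

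Among lower genes, *Fgr*, a Src family kinase gene of myeloid cells, was 5.26, 5.15 and 5.37 in WT and 4.57, 4.84 and 4.48 in Stau2GT mice (-0.63, limma adjusted p = 0.0696). These values lie close to the filter's log2 minimum of 5, and without Stau2GT mouse 2 *Fgr* passed (limma, adjusted p = 0.0158). *Mcm6*, which codes for a subunit of the replicative helicase, was 5.92, 5.84 and 6.01 against 5.34, 5.5 and 5.32 (-0.54, limma adjusted p = 0.0892). *Ndn*, the imprinted gene of necdin, a neuronal growth suppressor, was 8.75, 8.73 and 8.80 against 8.33, 8.41 and 8.30 (-0.41, limma adjusted p = 0.388), and naive WT mice lay above the other 9 arrays by 0.22. With 1 trained Stau2GT mouse left out, *Lactb2* and *Ndn* (both without mouse 2) and *Mcm6* (without mouse 3) passed in naive mice as well, with limma adjusted p from 0.0451 to 0.0493. *Rskr* (-0.29), *Nctc1* (-0.34), *Crb2* (-0.36), a cell polarity gene, *Tmem181c-ps* (-0.50) and *Myo1g* (-0.27) followed, again without overlap of the groups. For *Fgr* and *Tmem181c-ps* the naive WT mice also lay above the other 9 arrays, by 0.05 and 0.09.

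The size of some of the largest differences rested on single mice. *Gm3893* was 10.37, 10.25 and 8.07 in WT and 10.92, 10.80 and 10.89 in Stau2GT mice, a difference of 1.31 (limma adjusted p = 0.954) that was 0.56 without WT mouse 3 (limma adjusted p = 0.0184). *Fam205a2* and *4933409K07Rik*, on chromosome 4 like *Gm3893*, were low in the same WT mouse, at 7.33 and 7.39 against 8.41 or more in the others. The 3 genes have several clusters each (3 for *Gm3893*, 5 for *Fam205a2* and 8 for *4933409K07Rik*). Only the cluster with the highest mean is given for each. The direction did not rest on WT mouse 3 alone. All naive WT mice lay below the other 9 arrays, by 0.43 for *Gm3893*, 0.37 for *4933409K07Rik* and 0.22 for *Fam205a2*. *Rps3a1*, a ribosomal protein gene, was 8.83, 8.74 and 8.73 in WT and 9.87, 9.67 and 8.88 in Stau2GT mice, a difference of 0.71 in which Stau2GT mouse 3 lay close to WT. *Pttg1*, at -0.69, was low in Stau2GT mouse 2 above all (6.51, 5.73 and 6.52 against 6.95, 6.90 and 6.99 in WT).

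Gene lists of cell types, brain regions and responses had small median differences as well. Of 59 lists and families, the absolute median difference was under 0.05 in 47 and over 0.1 in 3. To show single mice, each value was taken relative to its naive WT mean and the median over a list's measured members was formed per mouse. These medians separated the genotypes in 10 of the 59, 8 higher and 2 lower. Among all genes, 7.38% separated them as higher and 5.18% as lower. These are shares of single genes, whereas a list median pools its members, so they are not a background for the 10 of 59. Some genes belong to several lists, and whether 10 of 59 is more than chance gives was not tested. No member of a list other than *Gabra2* passed over all clusters. Since brain lysates were measured, fewer cells of a type cannot be told apart from less RNA per cell in any of these lists.

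**Figure D4:**
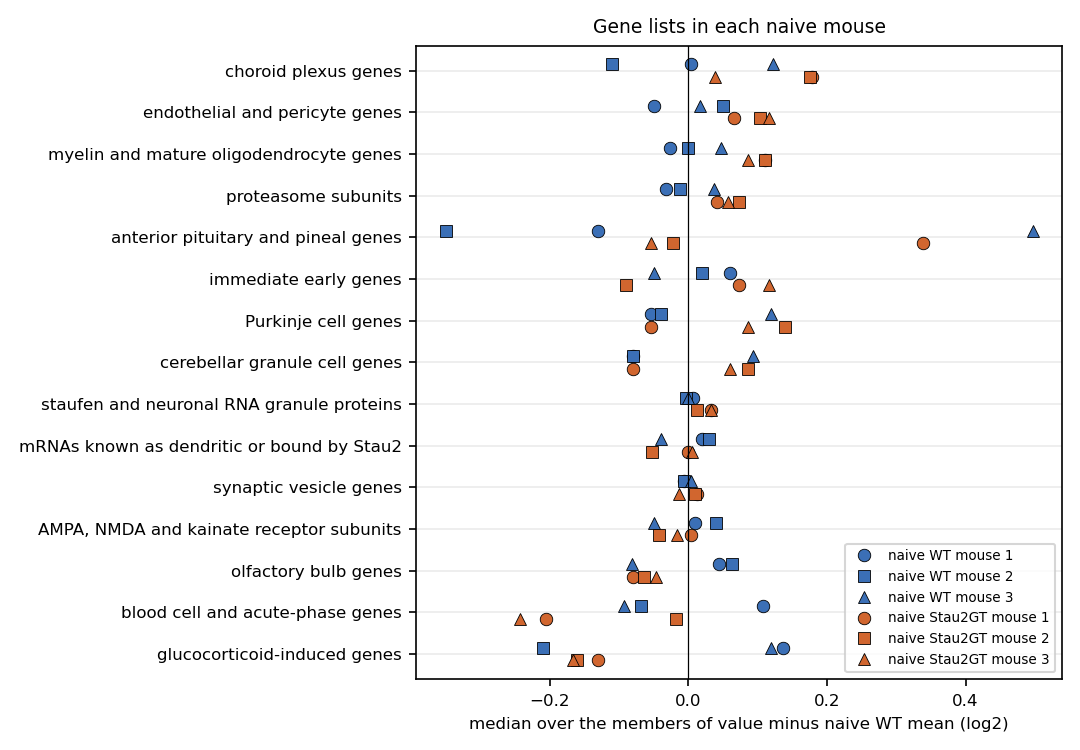
Median over the measured members of 15 gene lists (rows) of the log2 value minus the naive WT mean (x axis), for each naive WT mouse (blue) and Stau2GT mouse (orange). Myelin, endothelial, proteasome and RNA granule protein lists separate the genotypes, the RNA granule protein list only narrowly. In the glucocorticoid-induced list WT mice 1 and 3 stand above the other 4 mice. In the pituitary list WT mouse 3 and Stau2GT mouse 1 stand above the rest.

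Genes induced by glucocorticoids through the glucocorticoid receptor had the lowest median of all lists. Of 29 measured, 27 lay below 0 and 1 above, with a median of -0.17. The per-mouse medians of the 3 Stau2GT mice were alike, at -0.13, -0.16 and -0.17, and those of the WT mice were not, at 0.14, -0.21 and 0.12. *Lcn2*, which codes for the secreted siderophore-binding protein lipocalin 2, was 8.93, 5.51 and 8.46 in WT and 5.71, 6.07 and 5.35 in Stau2GT mice (-1.92, standard error 0.68, limma adjusted p = 0.954). *Sgk1*, the serum- and glucocorticoid-regulated kinase gene, was 8.73, 7.68 and 8.94 against 7.81, 7.87 and 7.71 (-0.65, limma adjusted p = 0.998). *Hif3a* was 6.87, 5.89 and 6.93 against 6.00, 6.24 and 5.85. Without WT mouse 2 the difference of *Lcn2* was -2.985 and passed (limma, adjusted p = 0.00207). In *Lcn2*, *Sgk1* and *Hif3a* WT mouse 2 lay within or next to the Stau2GT mice, while WT mice 1 and 3 lay above them.

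*Plin4*, the gene of a lipid droplet protein, and *Mertk*, a phagocytic receptor gene of astrocytes and microglia, were the 2 of the 29 without overlap. Both were lower, beside 5.18% of all genes that were lower without overlap. *Plin4* was 6.70, 6.27 and 6.80 in WT and 6.25, 6.04 and 6.12 in Stau2GT mice (-0.45, limma adjusted p = 0.954). *Fkbp5*, which codes for a co-chaperone that feeds back on the receptor, stood at -0.17, *Tsc22d3* at -0.19 and *Klf9* at -0.08. The list's median was -0.258 without WT mouse 2, -0.095 without WT mouse 1 and -0.0983 without WT mouse 3, so its size depended on which WT mice were used. The receptor gene *Nr3c1* itself was 8.99, 9.28 and 9.15 in WT and 9.27, 9.24 and 9.37 in Stau2GT mice (0.15, limma adjusted p = 0.998), and *Nr3c2*, the mineralocorticoid receptor gene, stood at 0.12.

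Hormone genes of the anterior pituitary differed widely between mice of the same genotype. *Gh*, the growth hormone gene, was 10.14, 8.76 and 12.91 in WT and 12.93, 10.44 and 11.43 in Stau2GT mice, and *Prl*, the prolactin gene, was 6.55, 5.73 and 10.80 against 11.01, 7.87 and 7.70. The same 2 mice, WT mouse 3 and Stau2GT mouse 1, were highest for both genes. *Pomc*, which codes for the precursor of ACTH and other peptides, was 5.69, 5.04 and 7.25 against 7.56, 6.82 and 7.33 (1.24, standard error 0.45, limma adjusted p = 0.954). Of the 14 measured genes of the list 8 were higher than 0 and 6 lower (median 0.06), and the direction depended on single mice. The median was 0.272 without WT mouse 3, -0.0525 without WT mouse 2, -0.0433 without Stau2GT mouse 1 and -0.0258 without WT mouse 1. How much pituitary tissue each brain sample held was not tested.

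Immediate early genes, which neurons transcribe within minutes of activity without new protein synthesis, lay above WT values in part. Of 39 measured, 27 were higher than 0 and 12 lower, and the median was 0.04. An unadjusted p under 0.05 was found for 6 of the 39, all higher, beside 2.33% of all genes that were higher at this p. The median was 0.0117 without Stau2GT mouse 3 (21 above 0 and 18 below), 0.015 without WT mouse 3 and 0.1 without Stau2GT mouse 2, with 0.0733 without WT mouse 1. *Fos*, which codes for a partner of Jun proteins in the AP-1 transcription factor, was 6.19, 5.96 and 5.63 in WT and 6.73, 6.27 and 6.67 in Stau2GT mice (0.63, standard error 0.18, limma adjusted p = 0.844). *Npas4*, a neuron-specific activity-dependent transcription factor gene, was 7.21, 6.82 and 6.16 against 7.42, 7.16 and 7.21 (0.53, limma adjusted p = 0.962). *Btg2*, an antiproliferative gene, was 6.57, 6.34 and 6.57 against 6.84, 6.87 and 6.73 (0.32, limma adjusted p = 0.872). *Fos* and *Btg2* separated the groups, whereas WT mouse 1 lay within the Stau2GT range for *Npas4*. For *Fos* and *Btg2* the naive WT mice also lay below the other 9 arrays, by 0.08 and 0.16. In trained mice *Fos* stood at 0.01, *Npas4* at 0.03 and *Btg2* at -0.04.

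*Egr1* (0.31), *Ier2* (0.28) and *Bdnf* (0.20), the gene of a neurotrophin, were the other 3. For *Bdnf* too the naive WT mice lay below the other 9 arrays, by 0.07. Widely used activity genes lay nearer to 0, with *Arc* at 0.10, *Nr4a1* at 0.13, *Junb* at 0.13, *Egr3* at 0.06 and *Homer1* at 0.04. The per-mouse medians of the list overlapped, at 0.06, 0.02 and -0.05 in WT and 0.07, -0.09 and 0.12 in Stau2GT mice. In trained mice the list's median was -0.17.

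Many activity-dependent promoters hold the cyclic AMP response element, to which CREB binds, or its half-site TGACG. The 250 bases before the transcript start (RefSeq, GRCm38.p6) of *Fos*, *Npas4* and *Btg2*, picked from the 6 after their values and letters were seen, are printed as examples. Capitals mark TGACG or its reverse complement CGTCA. The windows are chr12:85473640-85473889 on the plus strand for *Fos*, chr19:4989972-4990221 on the minus strand for *Npas4* and chr1:134079156-134079405 on the minus strand for *Btg2*.
Fos: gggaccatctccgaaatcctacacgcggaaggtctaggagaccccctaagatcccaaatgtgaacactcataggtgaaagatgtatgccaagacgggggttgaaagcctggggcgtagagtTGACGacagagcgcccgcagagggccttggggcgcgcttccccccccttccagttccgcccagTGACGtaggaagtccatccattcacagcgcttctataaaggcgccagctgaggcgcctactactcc
Npas4: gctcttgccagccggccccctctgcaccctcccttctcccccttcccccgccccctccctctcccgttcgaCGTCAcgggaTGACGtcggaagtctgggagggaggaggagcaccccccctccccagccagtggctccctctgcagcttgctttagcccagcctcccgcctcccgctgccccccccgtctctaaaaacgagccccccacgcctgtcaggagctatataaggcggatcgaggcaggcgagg
Btg2: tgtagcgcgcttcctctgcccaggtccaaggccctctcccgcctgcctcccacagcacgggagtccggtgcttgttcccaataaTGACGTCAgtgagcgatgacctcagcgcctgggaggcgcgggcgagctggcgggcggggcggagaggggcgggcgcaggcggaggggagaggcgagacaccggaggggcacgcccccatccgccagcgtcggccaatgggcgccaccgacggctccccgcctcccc
Each of the 3 windows held 2 half-sites, and in *Btg2* they overlapped in 1 full palindrome TGACGTCA. On both strands, the half-site occurred in 17.77% and the palindrome in 1.55% of all 32851 windows of this length, and 22 of 31 immediate early genes with a window held the half-site in at least 1, against 19.8% of all genes. A match of letters does not show that a factor was bound, nor was binding measured.

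Genes of myelin and mature oligodendrocytes, the glia that wrap axons, lay slightly above WT values in all 3 Stau2GT mice. Of 29 measured, 27 lay above 0 (51.9% of all genes did), with a median of 0.09. The groups were apart in 11 of the 29, all higher, beside 7.38% of all genes that were higher without overlap. The per-mouse medians were -0.03, 0.00 and 0.05 in WT and 0.11, 0.11 and 0.09 in Stau2GT mice. *Opalin*, a myelin membrane protein gene, was 6.97, 7.29 and 7.07 in WT and 7.63, 7.48 and 7.47 in Stau2GT mice (0.42, limma adjusted p = 0.607). *Mog*, which codes for a surface protein of myelin, was 8.37, 8.49 and 8.53 against 8.73, 8.83 and 8.63 (0.27), *Cldn11*, the tight junction gene of myelin, stood at 0.16 and *Mbp* at 0.08. In trained mice *Opalin* stood at 0.41, *Mog* at -0.10 and the list's median at -0.10. Oligodendrocyte precursor genes had a median of 0.02.

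Vascular and choroid plexus genes also lay above WT values. Of 29 endothelial and pericyte genes 23 lay above 0 with a median of 0.10 (0.0483 without WT mouse 1), and the per-mouse medians were -0.05, 0.05 and 0.02 in WT and 0.07, 0.10 and 0.12 in Stau2GT mice. *Kdr*, the gene of the main VEGF receptor of endothelium, was 6.92, 7.42 and 6.89 in WT and 7.70, 7.58 and 7.58 in Stau2GT mice (0.54, limma adjusted p = 0.562), and stood at 0.715 with an adjusted p of 0.014 without WT mouse 2. *Flt1*, the gene of another VEGF receptor, stood at -0.01 and *Pecam1* at -0.04, so the endothelial genes did not share 1 difference. *Ttr*, the choroid plexus gene of transthyretin, was 12.22, 11.97 and 12.41 against 12.49, 12.59 and 12.37 (0.28, limma adjusted p = 0.998). Of 24 choroid plexus genes 20 lay above 0 (median 0.12), but WT mouse 3, at 0.12, lay above Stau2GT mouse 3, at 0.04.

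**Figure D5:**
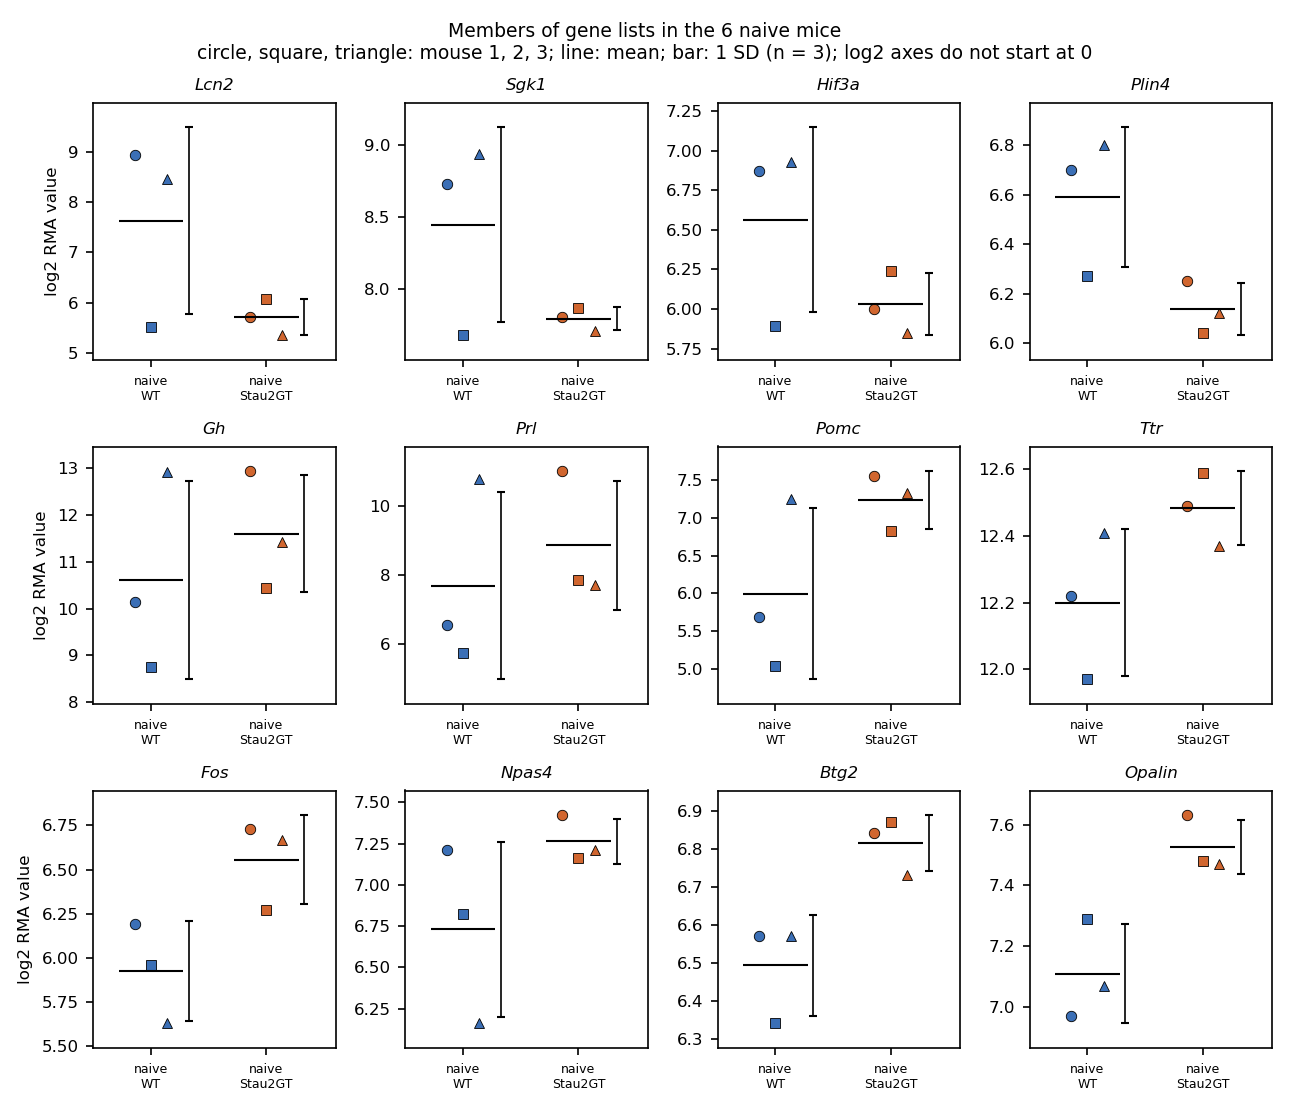
Log2 RMA values (y axis) of 12 members of the gene lists in the 3 naive WT and 3 naive Stau2GT mice (x axis), with symbols for mice 1, 2 and 3, the group mean (line) and 1 SD (bar, n = 3). WT mouse 2 (square) lies with the Stau2GT mice for *Lcn2*, *Sgk1* and *Hif3a*, WT mouse 3 (triangle) and Stau2GT mouse 1 (circle) are highest for *Gh* and *Prl*, and the groups do not overlap for *Fos*, *Btg2*, *Plin4* and *Opalin*.

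Olfactory bulb genes lay lower. Of 26 measured, 18 lay below 0 and 7 above, with a median of -0.07 (-0.0433 without WT mouse 2 and -0.128 without WT mouse 3). An unadjusted p under 0.05 was found for 4 of the 26, all lower, beside 2.19% of all genes that were lower at this p. *Trh*, the thyrotropin-releasing hormone gene, was 6.66, 6.70 and 6.63 in WT and 6.33, 6.36 and 6.12 in Stau2GT mice (-0.39, limma adjusted p = 0.798). *Cdhr1*, a cadherin gene of mitral and tufted cells, was 6.92, 6.72 and 6.03 against 6.29, 5.76 and 6.06, which overlapped through WT mouse 3. *Dlx2* (-0.34), a homeobox gene of interneuron progenitors, *Eomes* (-0.34) and *Th* (-0.15), the gene of tyrosine hydroxylase, separated the groups. WT mouse 3, whose list median was -0.08 against 0.045 and 0.06 in the other WT mice, lay with the Stau2GT mice at -0.08, -0.06 and -0.05. How much olfactory bulb each sample held was not tested.

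The cerebellar lists differed between mice of the same genotype. The per-mouse medians of 33 granule cell genes were -0.08, -0.08 and 0.09 in WT and -0.08, 0.09 and 0.06 in Stau2GT mice. Those of 23 Purkinje cell genes were -0.05, -0.04 and 0.12 against -0.05, 0.14 and 0.09. In both lists WT mouse 3 and Stau2GT mice 2 and 3 were high and the other 3 mice low, and with 1 mouse left out the list median lay between -0.0233 and 0.08 for granule cells and between 0.00667 and 0.112 for Purkinje cells. Astrocyte genes (median 0.005), microglia genes (0.02), striatal projection neuron genes (0.02), hippocampal and cortical neuron genes (0.01) and thalamic and midbrain genes (-0.01) stayed near 0. Blood cell and acute-phase genes were below 0 in 10 of 12, with a median of -0.13 (-0.0708 without WT mouse 1 and -0.196 without WT mouse 3) and per-mouse medians that overlapped, and *S100a9*, a neutrophil gene, was 5.52, 5.21 and 5.18 against 4.73, 4.77 and 4.86. These values are near the filter's minimum, as were those of *Fgr*.

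Families of genes with 1 cellular task differed little. Of 48 proteasome genes 34 lay above 0 (median 0.06, and 0.03 without WT mouse 1), and the per-mouse medians were -0.03, -0.01 and 0.04 in WT and 0.04, 0.07 and 0.06 in Stau2GT mice. *Psmd13* was 7.43, 7.38 and 7.44 against 7.64, 7.69 and 7.64 (0.24, limma adjusted p = 0.607), and *Psma2*, a gene of the proteasome core, stood at 0.21. Of 50 translation initiation factor genes 37 lay above 0 (median 0.04, 0.031 without WT mouse 1 and 0.063 without WT mouse 3), led by *Eif2b1* at 0.20. In trained mice the median was 0 for translation initiation factor genes and -0.02 for proteasome genes. Mitochondrial respiratory chain genes (84 measured) had a median of 0.02 and kinesins (27 measured) of -0.01, and the medians of cytosolic ribosomal protein genes (69 measured), potassium channel subunits (85 measured) and protocadherins (33 measured) lay within 0.01 of 0.

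Most members lay below 0 in some families. Predicted Gm genes were below 0 in 363 of 583 (median -0.03, and -0.018 without WT mouse 1), collagens in 29 of 43 (median -0.04, and -0.028 without Stau2GT mouse 1) and homeobox genes in 29 of 42 (median -0.05). Of 251 microRNA genes 152 lay below 0 (median -0.05, from -0.077 without WT mouse 3 to -0.02 without WT mouse 1), with 12 lower and 4 higher at an unadjusted p under 0.05. Of all genes, 2.19% were lower and 2.33% higher at this p. The per-mouse medians of predicted genes, collagens and microRNA genes overlapped between the genotypes, and those of homeobox genes did not. In trained mice the medians had the other sign, at 0.05 for predicted genes, 0.08 for collagens, 0.04 for homeobox genes and 0.02 for microRNA genes. The array probes microRNA genes as part of its gene set, and whether a value measures the hairpin, a longer precursor or the mature strand was not tested. *Mir344* was 7.35, 7.37 and 7.24 in WT and 7.08, 7.03 and 7.08 in Stau2GT mice (-0.26, limma adjusted p = 0.701), and *Mir200b* was 5.65, 5.82 and 5.80 against 5.46, 5.31 and 5.17 (-0.44). In the other direction, *Mir345* was 6.45, 6.35 and 6.32 against 6.68, 6.83 and 6.61 (0.33, limma adjusted p = 0.819) and *Mir425* stood at 0.26.

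A mature strand of these 4 microRNAs (RefSeq, GRCm38.p6) is shown with its seed, bases 2 to 8, in capitals, to let their targeting letters be compared. They lie at chr7:61877782-61877804 on the minus strand, chr4:156055685-156055706 on the minus strand, chr12:108836989-108837010 on the plus strand and chr9:108568789-108568811 on the plus strand, in the order given.
mmu-miR-344-3p: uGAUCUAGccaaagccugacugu
mmu-miR-200b-3p: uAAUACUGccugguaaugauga
mmu-miR-345-5p: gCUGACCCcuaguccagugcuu
mmu-miR-425-5p: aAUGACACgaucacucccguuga
No 2 of the 4 share a seed. *Mir200b* belongs to a family known from epithelia. A sequence was found for 219 of the 251 measured microRNA genes.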

How the data were processed

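Total RNA of brain was hybridized to Affymetrix Mouse Gene 2.0 ST arrays. The authors normalized the arrays by RMA (oligo) and deposited log2 values with 2 decimals, with the tool versions not given in the sources used here. Of 41345 transcript clusters, 27966 above log2 5 in at least 3 of 12 arrays were kept. A model of 4 group means was fitted with limma 3.58.1 (R 4.3.3) on 12 arrays (8 residual degrees of freedom), and p-values were adjusted by Benjamini-Hochberg over all clusters. A gene was the single-symbol cluster with the highest mean (16425 genes), and clusters with several symbols or none are given by number. Named were *Stau2*, *Stau1*, passing genes, the 12 genes each way with the smallest p, the 6 each way with the largest difference or apart in both states, and list members with the smallest p. Members and lists were chosen with earlier results of these data known. Scripts were tested on simulated data. Alternatives were filters, normalizations, moderation, array weights, a replicate block, the methods' t-test and leaving out each array. The number of arrays limits the precision. Some items are not reported here.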

Additional observations from a re-analysis of the deposited data

Results flagged for a closer look

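The genotype difference changed between training states (trained minus naive, limma interaction) in 6 clusters. It was -2.02 for cluster 17467250 (adjusted p = 0.000135), -1.90, -1.59 and -1.82 for clusters 17304162, 17304193 and 17304177 (limma adjusted p = 0.00211 each), -2.0 for cluster 17270096 (limma adjusted p = 0.0211) and -0.83 for *Ide* (limma adjusted p = 0.0147), the gene of an insulin-degrading protease. *Ide* stood at 0.04 in naive mice and -0.79 in trained mice. Trained WT mice, at 9.89, 9.87 and 9.77, were the group set apart, and the other 9 arrays lay between 8.99 and 9.19. *Ide* is 1 of the genes listed above as different between substrains, and the substrain of the mice was not tested.

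In 7 of the 154 genes chosen for naming, the other genes not being searched for this, all naive Stau2GT mice lay on 1 side of naive WT and all trained Stau2GT mice on the other side of trained WT, while the test of the difference did not pass (limma adjusted p from 0.448 to 0.570). The change, trained minus naive, was -0.33 for *Psmd13*, -0.42 for *Krt10*, -0.51 for *Cyp2r1*, -0.31 for *Ndufs1*, 0.41 for *Olfr332*, 0.27 for *Trim11* and 0.37 for *Col9a2*.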

How the results depend on the processing

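The count of 21 higher clusters was 13 with identical values counted once, 0 among clusters with 1 symbol and 0 by the methods' t-test after Benjamini-Hochberg, and 18 to 22 with 1 array left out. The count of 3 lower clusters was 5 after quantile normalization, 8 with array weights, 1 among clusters with 1 symbol, 0 by the t-test, and 3 to 7 with 1 array left out (7 without naive WT mouse 2). The number of clusters whose naive groups do not overlap was 3361, of which 2173 had 1 symbol, and 3361 to 6655 with 1 array left out, where fewer arrays have to be apart. The 6 clusters that differed between training states were 1 among those with 1 symbol and 4 to 10 with 1 array left out (10 without trained Stau2GT mouse 2). Same-numbered naive mice did not deviate together (correlations of 0.034, 0.048 and -0.025), so the numbers do not pair them. With a replicate block, Gabra2 in naive mice was -0.897 with a limma adjusted p of 0.0724, and by the t-test -0.897 with an adjusted p of 0.185, while with 1 array left out it lay between -0.945 and -0.84 and passed each time. The block gave 19 higher and 2 lower clusters. Of the list medians under all alternatives 594 stayed within the spread between replicates and 55 did not, and 83, from 30 lists with medians of at most 0.055 in size, took the other sign. No count or named gene did. The cause was not tested.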
